A study of Homo sapiens with 42 samples.

Results

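The genes described here encode 10 enzymes of serine synthesis and of folate-bound carbon metabolism, chosen by symbol from the 29313 genes that had reads in human HEK293T and THP-1 cells. PHGDH, PSAT1 and PSPH make up the serine synthesis pathway. SHMT1 and MTHFD1 were taken as the cytosolic branch of folate metabolism, and SHMT2, MTHFD2, MTHFD1L, MTHFD2L and ALDH1L2 as its mitochondrial branch. All 10 passed the filter on low counts in every experiment, so no gene of the group was lost. The fewest reads of any of them in a library were 87, for SHMT1. By GENCODE release 29 (GRCh38) the genes lie in different places in the genome, PHGDH on chr1:119648411-119744226, PSAT1 on chr9:78297143-78330093, PSPH on chr7:56011051-56051604, SHMT1 on chr17:18327860-18363563, MTHFD1 on chr14:64388031-64463457, SHMT2 on chr12:57229327-57234935, MTHFD2 on chr2:74198562-74217565, MTHFD1L on chr6:150865549-151101887, MTHFD2L on chr4:74114174-74303099 and ALDH1L2 on chr12:105019784-105084577.

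Cells make serine from the glycolytic intermediate 3-phosphoglycerate in successive steps catalysed by PHGDH, PSAT1 and PSPH. Serine hydroxymethyltransferases then pass a carbon from serine to tetrahydrofolate and release glycine. In mitochondria this carbon is oxidised to formate, which leaves for the cytosol and is used there to build purines, thymidylate and methionine. Several of these genes are known targets of ATF4, the transcription factor that mediates the cell's response to amino acid shortage.

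The study asked how protein-coding gene expression changes when RNA polymerase III (Pol III), the enzyme that makes tRNAs and other short RNAs, is impaired. The poly(A) RNA libraries numbered 42, with 3 replicates in each of the 14 groups. HEK293T, a transformed human embryonic kidney line, was transfected for 48 h with an antisense oligonucleotide (ASO) against POLR3G at 200 nM or a scramble ASO at 200 nM. Other HEK293T cells received a POLR3G siRNA or a control siRNA, both at 200 nM for 48 h. A further set received 1 of 3 siRNAs against POLR3GL, named siE4, siE6 and siE8, or a control siRNA, all at 25 nM for 48 h. POLR3G and POLR3GL encode alternative forms of the same Pol III subunit. In the last HEK293T experiment cells were transfected for 48 h to overexpress MAF1, a repressor of Pol III, or eGFP. THP-1, a monocytic leukaemia line, received ML-60218, which inhibits Pol III, at 25 uM for 4 h together with cycloheximide (CHX, a translation inhibitor) at 10 ug/ml for 4.5 h, or CHX alone, ML-60218 alone, or DMSO. Each result comes from a single line, HEK293T or THP-1, and the labels do not say whether replicates were separate cultures, so the spread between them may be technical. In bulk samples of this kind fewer expressing cells and less RNA per cell cannot be told apart.

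Libraries held 32705684 to 52568088 estimated reads. A list of 8 THP-1 markers summed to 3920 to 6010 TPM, a level scaled for transcript length and depth, in THP-1 libraries and to 1.33 to 18.7 TPM in HEK293T libraries, and 6 HEK293T markers summed to 0.828 to 3.34 TPM in THP-1 and to 188 to 676 TPM in HEK293T. POLR3G was 2.81-fold lower with the ASO and 2.38-fold lower with its siRNA. POLR3GL was 11.8-fold lower with siE4, 10.2-fold lower with siE6 and 13.1-fold lower with siE8, and MAF1 was 74.7-fold higher with overexpression. The groups were not specific to 1 subunit: POLR3G was also 1.8-fold lower with siE4, 1.48-fold with siE6 and 1.91-fold with siE8, POLR3GL was 1.36-fold lower with the POLR3G ASO and 1.49-fold with the POLR3G siRNA, and MAF1 was 5.07-fold lower with the POLR3G siRNA. All of these changes passed edgeR's quasi-likelihood test, the highest adjusted p being 0.000186.

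PHGDH and PSAT1 were abundant in HEK293T control cells and low in THP-1, while PSPH differed less between the lines. In levels per transcript length, PHGDH, which oxidises 3-phosphoglycerate, averaged 374 ± 19.5 TPM with scramble ASO, 566 ± 5.99 and 560 ± 47.9 TPM with the 200 nM and 25 nM control siRNAs, and 310 ± 2.61 TPM with eGFP (SD, n = 3 each), but 32.9 ± 2.16 TPM in THP-1 with DMSO. PSAT1, the aminotransferase of the next step, averaged 359 ± 25.8, 506 ± 7.35, 474 ± 34.1 and 195 ± 6.52 TPM in those HEK293T controls and 23.5 ± 1.27 TPM in THP-1. PSPH, the phosphatase that releases serine, was the lowest of the pathway in each control, at 35.5 ± 0.395 to 71.5 ± 4.51 TPM in HEK293T and 18.4 ± 0.654 TPM in THP-1. PHGDH and PSPH did not overlap in any control group. PHGDH and its neighbour PSAT1 overlapped with scramble ASO (354 to 392 TPM and 332 to 383 TPM) and were apart in the other controls. The lines were grown and treated in different experiments, so their levels are given without a test.

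In the mitochondrial branch MTHFD2 and SHMT2 had the highest levels. MTHFD2, a methylenetetrahydrofolate dehydrogenase and cyclohydrolase, ranged from 112 ± 6.35 TPM with eGFP to 266 ± 26.9 TPM with the 25 nM control siRNA, and had 59.8 ± 2.52 TPM in THP-1. SHMT2, which takes the carbon from serine in mitochondria, ranged from 154 ± 7.04 to 234 ± 5.48 TPM in HEK293T controls and had 92.0 ± 3.1 TPM in THP-1. The order of these neighbours was not the same in all controls. Within each library SHMT2 was the higher of the pair with scramble ASO, with eGFP and in THP-1 with DMSO, and MTHFD2 with both control siRNAs. Across libraries the ranges of the pair overlapped with scramble ASO and with the 25 nM control siRNA. MTHFD1L, which releases formate from formyl-tetrahydrofolate, had 56.0 ± 1.38 to 97.5 ± 3.44 TPM in HEK293T controls and 23.7 ± 1.29 TPM in THP-1. ALDH1L2, which oxidises formyl-tetrahydrofolate to carbon dioxide, had 17.4 ± 0.682 to 41.1 ± 1.43 TPM and 5.42 ± 0.0523 TPM. MTHFD2L, a close relative of MTHFD2, had 11.5 ± 1.89 to 17.6 ± 1.01 TPM and 5.64 ± 0.426 TPM.

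Values of several genes depend on how reads were divided among transcripts. For MTHFD1, the cytosolic enzyme with dehydrogenase, cyclohydrolase and synthetase activities, 15 of the 16 transcripts in GENCODE release 29 had values; MTHFD1-201 was not analysed here. Protein-coding transcripts held a median of 45.7% of its reads in HEK293T and 22.4% in THP-1, so its values may describe only part of its RNA. For SHMT1, the cytosolic hydroxymethyltransferase, the level of a library followed the transcript to which its reads were assigned. In the 18 HEK293T libraries where SHMT1-201 held at least 50% of its reads the gene had 26.6 to 51.5 CPM (reads scaled to library size), and in the other 12 it had 9.99 to 25.1 CPM. The same split in THP-1 separated 5 libraries at 8.8 to 10.0 CPM from 7 at 2.25 to 3.83 CPM, and it cut across replicates of the same group. For MTHFD2L, a single transcript without a coding annotation, MTHFD2L-208, held a median of 68.0% of reads in HEK293T and 42.5% in THP-1. MTHFD2-201, the coding form of MTHFD2, held 45.3% in HEK293T and 53.8% in THP-1. MTHFD2-208, a form annotated as subject to nonsense-mediated decay, held 29.4% and 35.0%. For PSPH, protein-coding transcripts held a median of 93.1% of reads in HEK293T but 47.7% in THP-1 (33.2% to 59.6%). Its levels and changes in THP-1 therefore describe coding and other forms together. PSPH, PSAT1, MTHFD2, SHMT1 and MTHFD1 also have pseudogene copies in the annotation, with which Salmon may have shared reads. TPM were used as deposited, whereas fold changes come from counts scaled between libraries. On the TPM scale the median log2 difference over all tested genes was 0.173 with the ASO, -0.116 with the POLR3G siRNA, -0.217 with siE4, -0.185 with siE6, -0.025 with siE8 and 0.304 with CHX, so differences in TPM are also given relative to this median where they part from the fold change.

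Promoters were searched because several of these genes moved together in these data and ATF4 is known to bind composite elements in amino acid response genes. RefSeq windows (GRCh38.p14) of 250 bases before to 50 after a start were available for 7 of the 10 genes, in 11 windows. The element TGATGNAA was sought on both strands. It was found in MTHFD1L alone, on the forward strand, 90 bases upstream of the start for the window chr6:150866197-150866496 (forward strand), and the same site lies in both overlapping windows of neighbouring starts. Of 35116 RefSeq windows of the same length, 3.62% held a match, and 4.46% of the 27305 genes did. The MTHFD1L window is shown beside the windows of PSAT1 (chr9:78296875-78297174, forward strand), which had the largest fall of any of these genes with a POLR3GL siRNA, and of PHGDH (chr1:119711684-119711983, forward strand), which fell in every knockdown comparison. Neither of these held the element. Capitals mark the match.
MTHFD1L: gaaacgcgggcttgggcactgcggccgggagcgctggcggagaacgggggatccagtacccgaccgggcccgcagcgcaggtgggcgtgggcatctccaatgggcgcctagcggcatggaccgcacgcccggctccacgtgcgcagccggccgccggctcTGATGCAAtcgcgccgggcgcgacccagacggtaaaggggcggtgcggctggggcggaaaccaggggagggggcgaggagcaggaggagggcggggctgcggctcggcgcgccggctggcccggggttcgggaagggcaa
PSAT1: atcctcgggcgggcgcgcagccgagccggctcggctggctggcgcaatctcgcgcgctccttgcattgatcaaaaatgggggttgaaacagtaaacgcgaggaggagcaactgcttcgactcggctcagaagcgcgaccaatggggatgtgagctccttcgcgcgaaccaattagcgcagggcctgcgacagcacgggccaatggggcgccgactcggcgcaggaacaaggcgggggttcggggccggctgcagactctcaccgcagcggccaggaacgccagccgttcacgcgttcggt
PHGDH: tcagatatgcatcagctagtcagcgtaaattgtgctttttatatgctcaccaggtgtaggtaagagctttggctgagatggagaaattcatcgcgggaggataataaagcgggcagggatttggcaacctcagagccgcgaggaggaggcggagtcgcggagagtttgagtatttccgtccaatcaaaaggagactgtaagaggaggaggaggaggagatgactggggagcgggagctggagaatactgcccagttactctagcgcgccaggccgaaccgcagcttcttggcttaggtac
The match is a stretch of letters, and no binding was measured at it.

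With the POLR3G ASO, all 3 serine synthesis genes and 4 of the 5 mitochondrial genes were lower, by 1.23-fold to 2.42-fold. Of the 10 genes 8 were lower and 2 higher by edgeR's test at an adjusted p under 0.05, in a comparison where 68.5% of all 17098 tested genes were called (34.1% lower and 34.4% higher) and the median log2 fold change was -0.003. The median over the 10 was -0.64. PHGDH had 254, 247 and 251 CPM in the ASO libraries, against 410, 386 and 413 CPM in the scramble libraries (log2 fold change -0.68 ± 0.028 SE, adjusted p = 1.57e-07). PSAT1 had 303, 317 and 301 CPM with the ASO, against 603, 554 and 619 CPM with the scramble. PSPH had 43.9, 43.0 and 41.0 CPM with the ASO, against 70.1, 65.2 and 70.9 CPM with the scramble. No ASO library reached the lowest scramble library for any of these genes, and PSAT1 fell by 0.95 ± 0.040 and PSPH by 0.69 ± 0.042 on the log2 scale (highest adjusted p = 1.2e-06).

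ALDH1L2 and MTHFD2 fell most with the ASO. ALDH1L2 had 67.5, 72.7 and 64.8 CPM in ASO libraries, against 172, 152 and 173 CPM in scramble libraries, a log2 fold change of -1.28 ± 0.057. MTHFD2 had 127, 145 and 153 CPM with the ASO, against 293, 271 and 294 CPM with the scramble (-1.01 ± 0.062). MTHFD1L fell by 0.59 ± 0.029 and SHMT2 by 0.30 ± 0.034 on the log2 scale. All 4 had adjusted p of 4.5e-05 or less, and none had overlapping libraries in CPM. In TPM the libraries of MTHFD1L and SHMT2 overlapped, with log2 differences of -0.13 and -0.10, or -0.30 and -0.27 relative to the median of all genes. SHMT1 fell by 0.22 ± 0.035 (adjusted p = 0.000374), a call that was lost when all HEK293T libraries shared one estimate of spread (adjusted p = 0.64). MTHFD1 rose, with 64.9, 62.8 and 65.5 CPM in ASO libraries, against 50.3, 48.0 and 48.3 CPM in scramble libraries (0.40 ± 0.032, adjusted p = 6.1e-06), and so did MTHFD2L (0.60 ± 0.069, adjusted p = 5.32e-05). The direction for MTHFD2L was the opposite in its protein-coding transcripts, at -0.30 with an adjusted p of 0.304.

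The POLR3G siRNA was followed by larger falls in most of the same genes. Again 8 genes were lower and 2 higher, where 74.9% of 15423 genes were called (38.1% lower and 36.8% higher), and their median log2 fold change was -1.11 against -0.02 over all genes. ALDH1L2 had 48.1, 48.2 and 52.9 CPM in siRNA libraries, against 212, 223 and 217 CPM with control siRNA, a 4.37-fold difference (log2 -2.13 ± 0.038, adjusted p = 5.68e-10). PSAT1 had 189, 185 and 191 CPM with the siRNA, against 714, 714 and 709 CPM in control libraries. PHGDH had 198, 203 and 198 CPM in siRNA libraries, against 532, 539 and 519 CPM in control libraries, a 2.66-fold difference (log2 -1.41 ± 0.021, adjusted p = 2.04e-10). In these genes the gap between the groups was many times the spread within them. PSPH fell by 1.16 ± 0.029, MTHFD1L by 1.07 ± 0.020, MTHFD2 by 0.81 ± 0.023 and SHMT2 by 0.45 ± 0.021 on the log2 scale, with adjusted p of 9.18e-08 or less.

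SHMT1 had 18.5, 14.9 and 13.7 CPM in POLR3G siRNA libraries, against 30.7, 51.5 and 26.6 CPM in control libraries (log2 -1.21 ± 0.24, adjusted p = 0.00142). The spread of SHMT1 among the control libraries followed the assignment of reads between its transcripts given above. That assignment also separated the groups. SHMT1-201 held 27.6%, 15.3% and 0.00187% of SHMT1 reads in siRNA libraries, against 61.2%, 76.3% and 51.3% in control libraries. Whether the lower SHMT1 value reflects this assignment was not tested. MTHFD1 was higher with the siRNA, at 52.5, 54.7 and 54.6 CPM, against 33.7, 42.3 and 39.7 CPM with control siRNA (0.48 ± 0.071, adjusted p = 0.000239). MTHFD2L rose by 0.20 ± 0.044 (adjusted p = 0.00278) but did not pass with an offset for effective length (0.03, adjusted p = 0.703), and its log2 difference in TPM was -0.07, or 0.04 relative to the median of all genes.

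A joint model of both POLR3G experiments tested the ASO response minus the siRNA response. This difference was positive for 8 genes and negative for 1, where 66.8% of 17489 genes were called (33.8% positive and 33.0% negative). It was positive for PSAT1 (0.94 ± 0.049), ALDH1L2 (0.82 ± 0.077), PHGDH (0.70 ± 0.037), MTHFD1L (0.45 ± 0.034) and PSPH (0.44 ± 0.052), with adjusted p of 6.9e-06 or less, so these fell less with the ASO. MTHFD2 went the other way (-0.23 ± 0.075, adjusted p = 0.0151), having fallen more with the ASO. Its call was lost with all HEK293T libraries in the fit (adjusted p = 0.0578). SHMT2 differed by 0.12 ± 0.042 (adjusted p = 0.025), a call that 9 alternatives ended, among them protein-coding transcripts only (-0.02), and 6 of which left out 1 library, and SHMT1 by 0.96 ± 0.27 (adjusted p = 0.00678), a call lost with all HEK293T libraries in the fit (adjusted p = 0.152). The remaining positive gene was MTHFD2L (0.37 ± 0.082, adjusted p = 0.00131), which was negative in its protein-coding transcripts (-1.78, adjusted p = 8.14e-05). The reduction of POLR3G itself was not called different (-0.27 ± 0.25, adjusted p = 0.356).

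**Figure D1:**
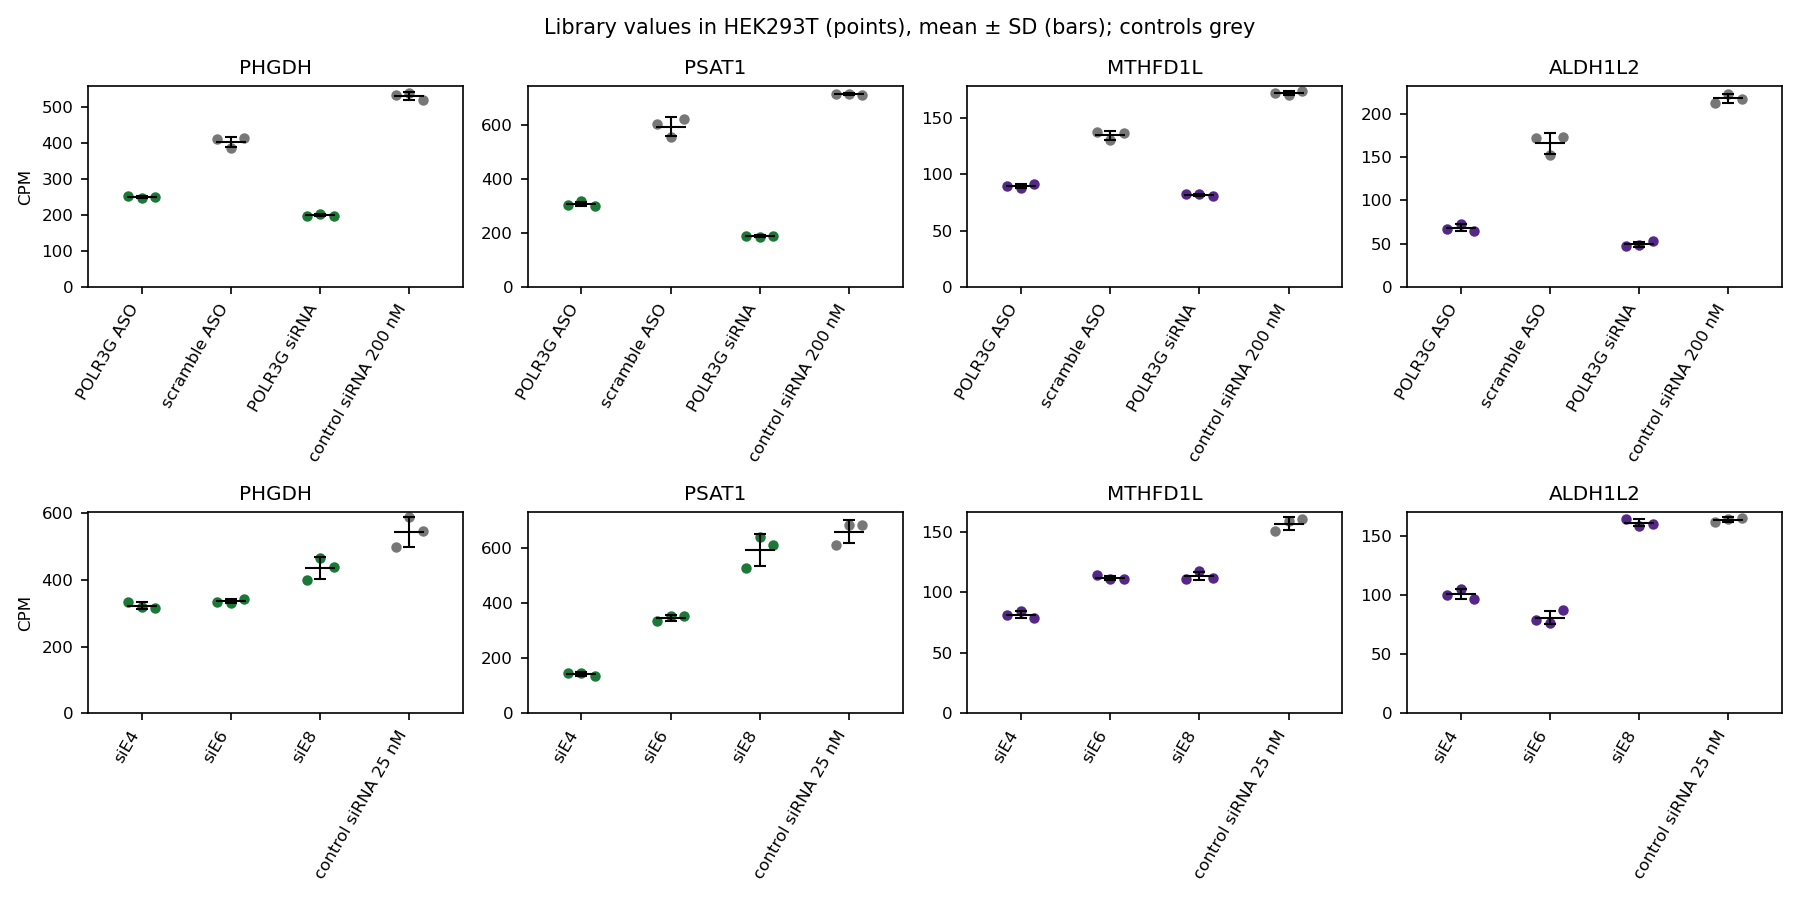
CPM of PHGDH, PSAT1, MTHFD1L and ALDH1L2 in HEK293T libraries of the POLR3G experiments (upper row) and the POLR3GL experiment (lower row), with a point for each library and bars for mean ± SD (n = 3). The POLR3G groups lie below their controls in all 4 genes, and siE8 libraries overlap their controls for PSAT1 and ALDH1L2.

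The 3 POLR3GL siRNAs differed in what happened to these genes. With siE4, 7 genes were lower and 2 higher (54.9% of 15573 genes called, 28.7% lower and 26.2% higher), and with siE6, 6 were lower and 3 higher (63.0% called, 31.8% lower and 31.2% higher). With siE8 2 were lower and 4 higher (57.7% called, 28.6% lower and 29.1% higher), and the median log2 fold change over the 10 was 0.04, against -0.73 with siE4 and -0.50 with siE6. The 3 comparisons share their control libraries. Over all genes the medians were -0.021 with siE4, -0.002 with siE6 and -0.009 with siE8.

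PSAT1 separated the 3 siRNAs most. It had 147, 146 and 134 CPM with siE4, 334, 354 and 354 CPM with siE6, and 527, 641 and 612 CPM with siE8, against 611, 684 and 684 CPM with control siRNA. The siE4 and siE6 libraries lay below every control library, and the siE8 libraries overlapped them. PSAT1 fell 4.64-fold with siE4 (log2 -2.21 ± 0.072, adjusted p = 1.14e-10) and 1.9-fold with siE6 (-0.93 ± 0.069, adjusted p = 9.55e-08), and had a log2 fold change of -0.15 ± 0.069 with siE8 (adjusted p = 0.0728). The siE8 value was -0.21 and passed without control replicate 1 (adjusted p = 0.0267) or siE8 replicate 2 (adjusted p = 0.0265), and it also passed in protein-coding transcripts (-0.16, adjusted p = 0.0318) and with all HEK293T libraries in the fit (-0.15, adjusted p = 0.0256).

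PSPH had 35.1, 34.0 and 31.9 CPM with siE4, 34.3, 35.6 and 33.9 CPM with siE6, and 73.2, 84.9 and 81.4 CPM with siE8, against 66.4, 70.5 and 74.1 CPM in controls. It fell by 1.06 ± 0.061 with siE4 and by 1.02 ± 0.061 with siE6 on the log2 scale, with adjusted p of 1.23e-08 or less. With siE8 it was higher by 0.18 ± 0.059 (adjusted p = 0.0169). That call rested on overlapping libraries and was lost without control replicate 1 (0.14) and without siE8 replicate 2 (0.14) or replicate 3 (0.17). PHGDH, in contrast, was lower with all 3 siRNAs, at 333, 318 and 315 CPM with siE4, 334, 330 and 343 CPM with siE6, and 399, 465 and 437 CPM with siE8, against 499, 588 and 544 CPM in controls. Its log2 fold changes were -0.76 ± 0.063, -0.69 ± 0.063 and -0.33 ± 0.062 in that order, the highest adjusted p being 0.000567.

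Mitochondrial genes also divided by siRNA. ALDH1L2 had 100.3, 105 and 96.7 CPM with siE4, 78.8, 76.7 and 87.2 CPM with siE6, and 165, 159 and 160.3 CPM with siE8, against 162, 164 and 165 CPM in controls. It fell with siE4 (log2 -0.70 ± 0.048) and siE6 (-1.02 ± 0.048) and was at -0.02 ± 0.047 with siE8 (adjusted p = 0.696). MTHFD2 had 172, 163 and 152 CPM with siE4, 232, 251 and 250 CPM with siE6, and 351, 394 and 381 CPM with siE8, against 317, 361 and 370 CPM in controls. It fell with siE4 (-1.11 ± 0.066) and siE6 (-0.52 ± 0.065), with adjusted p of 1.32e-05 or less. MTHFD2-201 held 28.4%, 27.9% and 30.7% of MTHFD2 reads with siE4 and 57.4%, 57.3% and 58.8% with siE6. It held 57.0%, 58.0% and 57.2% with siE8, against 45.4%, 42.5% and 41.5% in controls. The changes of MTHFD2 therefore describe coding and other forms together. With siE8 MTHFD2 was at 0.10 ± 0.065 (adjusted p = 0.186), and this value was -0.21 with a length offset and 0.47 in protein-coding transcripts, both past the threshold.

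SHMT2 fell with siE4, where it had 178, 174 and 171 CPM, against 254, 289 and 262 CPM in controls (log2 -0.63 ± 0.056, adjusted p = 7.83e-07). It rose with siE6 (316, 317 and 317 CPM; 0.24 ± 0.055, adjusted p = 0.00202) and with siE8 (297, 343 and 323 CPM; 0.26 ± 0.055, adjusted p = 0.00134). In TPM, however, SHMT2 averaged 231 ± 7.9 with siE6 and 231 ± 16.1 with control siRNA (SD, n = 3 each), a difference of 0.19 on the log2 scale relative to the median of all genes. MTHFD1L was lower with all 3, at 80.9, 84.6 and 78.9 CPM with siE4, 114, 111 and 111 CPM with siE6, and 111, 118 and 112 CPM with siE8, against 151, 159 and 161 CPM in controls. Its log2 fold changes were -0.94 ± 0.040, -0.48 ± 0.040 and -0.46 ± 0.040, with adjusted p of 4.05e-07 or less. MTHFD2L was higher with all 3, by 0.59 ± 0.096, 1.53 ± 0.094 and 0.80 ± 0.095 on the log2 scale. In its protein-coding transcripts it was at -0.06 with siE6 (adjusted p = 0.805), and the siE8 call was lost as well (0.37, adjusted p = 0.0901).

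**Figure D2:**
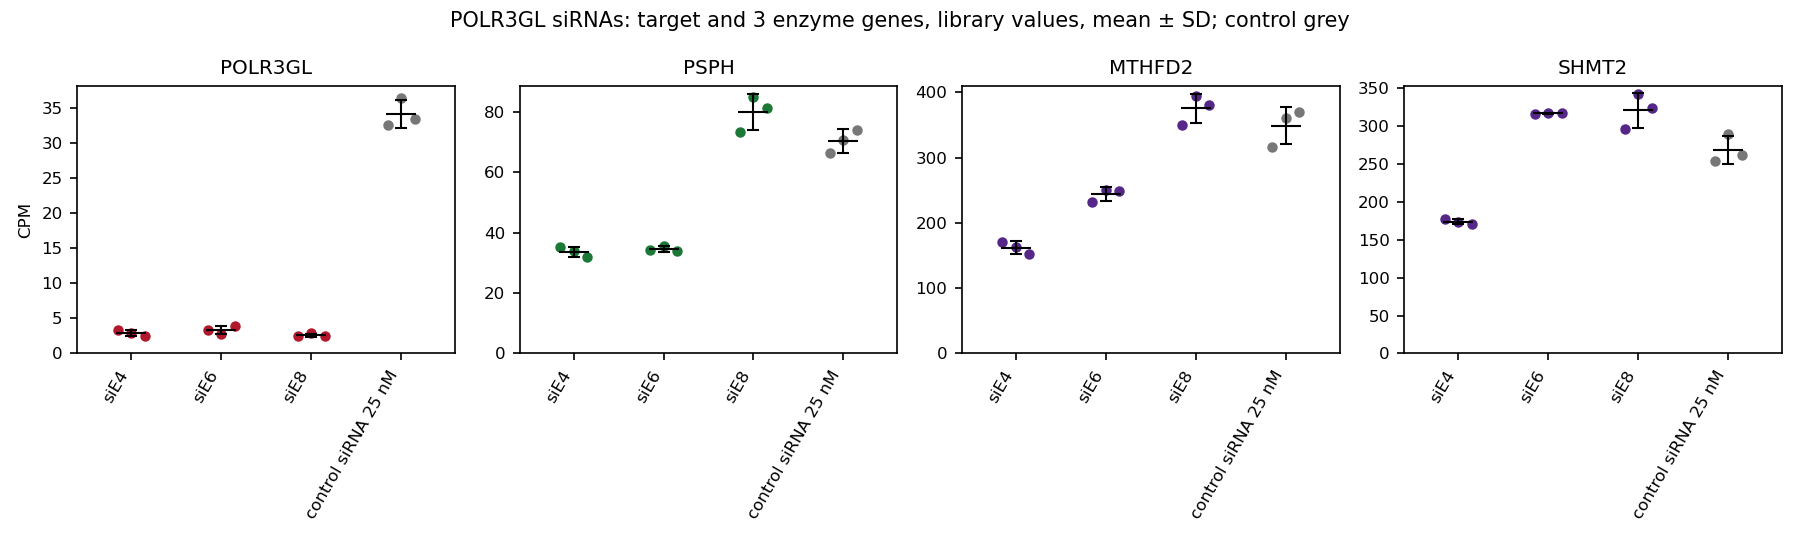
CPM of POLR3GL, PSPH, MTHFD2 and SHMT2 with siE4, siE6, siE8 and control siRNA in HEK293T, with a point for each library and bars for mean ± SD (n = 3). POLR3GL lies near 3 CPM with each siRNA, against about 34 CPM in controls, while PSPH and MTHFD2 are below controls with siE4 and siE6 and overlap them with siE8.

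Of the cytosolic genes, MTHFD1 rose with siE4 (35.4, 38.5 and 42.1 CPM, against 35.2, 29.9 and 31.3 CPM in controls; log2 0.27 ± 0.068, adjusted p = 0.00455) and with siE8 (42.8, 43.4 and 42.9 CPM; 0.42 ± 0.067, adjusted p = 0.00013). Both calls were lost with a length offset (0.15, adjusted p = 0.436, and 0.17, adjusted p = 0.379), and the siE4 difference was -0.07 in TPM, or 0.15 relative to the median of all genes. With siE6 it was at 0.11 ± 0.068 (adjusted p = 0.185), but it passed in protein-coding transcripts (0.45, adjusted p = 0.000823) and without control replicate 1 (0.18, adjusted p = 0.0345). SHMT1 had 32.4, 47.3 and 29.4 CPM with siE4, 36.7, 46.0 and 33.7 CPM with siE6, and 13.3, 25.1 and 16.9 CPM with siE8, against 9.99, 36.7 and 13.3 CPM in controls. Replicate 2 was the highest library of each of the 4 groups, and the siE4 and siE6 libraries overlapped the controls. The siE6 value passed (0.96 ± 0.38, adjusted p = 0.0424) but lost its call in 9 alternatives, and the siE4 value did not pass (0.87 ± 0.38, adjusted p = 0.073). The siE4 value did pass without control replicate 2 (1.64, adjusted p = 0.000356), with a block for replicate number (0.99, adjusted p = 0.0032) and without a filter on low counts (0.87, adjusted p = 0.0348).

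Direct comparisons tested these differences between siRNAs. Set against siE8, siE4 had 7 genes lower and 1 higher (63.0% of genes called, 32.4% lower and 30.5% higher), and siE6 had 6 lower and 2 higher (64.2% called, 32.1% lower and 32.1% higher). SHMT1 was the gene higher with siE4, a call lost in 8 alternatives, 4 of them leaving out a library. SHMT1 and MTHFD2L were those higher with siE6, where the SHMT1 call was lost in 4 alternatives and MTHFD2L was at -0.43 in protein-coding transcripts (adjusted p = 0.0506). PSAT1 was 4.17-fold lower with siE4 than with siE8 (log2 -2.06 ± 0.072, adjusted p = 6.36e-11) and 1.71-fold lower with siE6 (-0.77 ± 0.069, adjusted p = 4.6e-07). PSPH was lower than with siE8 by 1.25 ± 0.061 with siE4 and by 1.21 ± 0.061 with siE6 on the log2 scale, and ALDH1L2 by 0.68 ± 0.048 and 0.99 ± 0.048. MTHFD2 was lower by 1.21 ± 0.066 with siE4 and by 0.62 ± 0.065 with siE6, and PHGDH by 0.43 ± 0.063 and 0.37 ± 0.063. All of these passed, with a highest adjusted p of 0.000173. POLR3GL was not called different between siE4 and siE8 (0.14 ± 0.15, adjusted p = 0.409) and was higher with siE6 than with siE8 by 0.36 ± 0.14 (adjusted p = 0.0401).

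Between siE4 and siE6, 5 genes were lower with siE4 and 1 was higher (64.8% called, 32.6% lower and 32.2% higher). PSAT1 was 2.44-fold lower (log2 -1.29 ± 0.071) and SHMT2 1.82-fold lower (-0.87 ± 0.056) with siE4, while ALDH1L2 was higher (0.32 ± 0.048, adjusted p = 6.52e-05). PHGDH (-0.06 ± 0.063, adjusted p = 0.411) and PSPH (-0.04 ± 0.062, adjusted p = 0.588) were not called. MTHFD2 was lower by 0.59 ± 0.066 with siE4, which was -0.02 with a length offset (adjusted p = 0.823). Over the 5 knockdown comparisons in HEK293T, PHGDH and MTHFD1L were lower in all 5, and PSAT1, PSPH, MTHFD2 and ALDH1L2 in 4, siE8 being the exception for each. Of the 15067 genes tested in all 5, 3.42% were lower in all 5 and 12.9% in at least 4. The 3 POLR3GL comparisons share their controls.

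**Figure D3:**
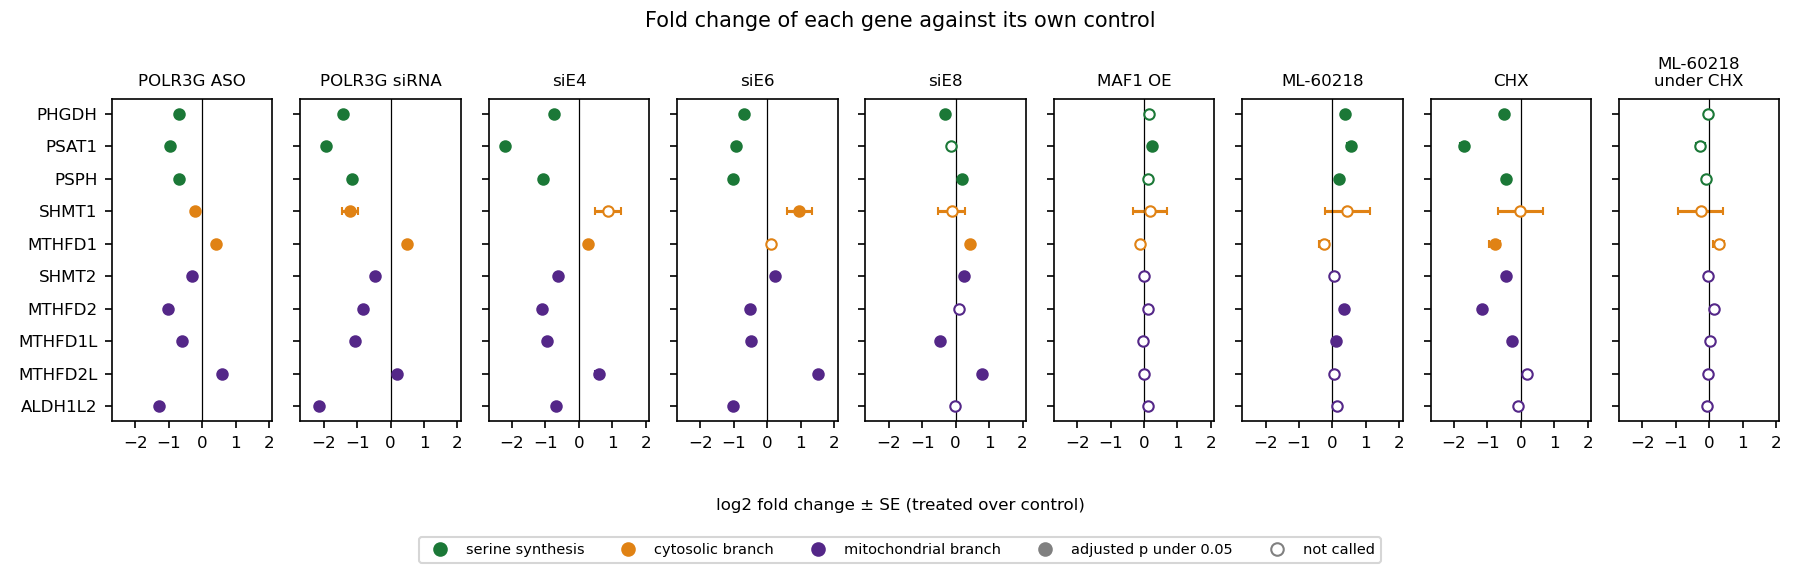
The log2 fold change of each of the 10 genes in 9 comparisons, with SE as bars; filled points passed an adjusted p of 0.05. Most serine synthesis and mitochondrial genes lie left of 0 with the POLR3G ASO, the POLR3G siRNA, siE4 and siE6, and fewer do with siE8. With ML-60218, PHGDH, PSAT1, PSPH, MTHFD2 and MTHFD1L are filled points right of 0, and SHMT1, ALDH1L2, SHMT2 and MTHFD2L are open points right of 0.

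MAF1 overexpression was followed by little change. Only PSAT1 of the 10 was called, where 6 of 15543 genes (0.0386%) were, 0.0322% higher and 0.00643% lower, MAF1 itself among them. Of the 10 genes 5 had an unadjusted p under 0.05 by edgeR's test, and DESeq2 called 2. PSAT1 had 349, 347 and 333 CPM with MAF1, against 286, 288 and 295 CPM with eGFP (log2 0.24 ± 0.028, adjusted p = 0.0407). Although no libraries overlapped, the call was lost under 8 of the alternatives, 5 of them leaving out 1 library each, with adjusted p up to 0.375. PHGDH had 353, 354 and 337 CPM with MAF1, against 311, 312 and 311 CPM with eGFP, and did not pass (0.16 ± 0.027, adjusted p = 0.234), though DESeq2 called it. The other 8 genes had log2 fold changes between -0.11 and 0.18 and adjusted p of 0.458 or more.

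In THP-1, all 3 serine synthesis genes were higher with ML-60218. Of the 10 genes 5 were higher and 0 lower, where 15.5% of 15327 genes were called, 8.48% higher and 7.05% lower. PSAT1 had 57.1, 66.9 and 46.1 CPM with ML-60218, against 39.4, 39.7 and 35.8 CPM with DMSO (log2 0.56 ± 0.11, adjusted p = 0.00449). PHGDH had 45.2, 49.7 and 41.5 CPM with ML-60218, against 36.3, 36.1 and 33.0 CPM with DMSO (0.37 ± 0.057, adjusted p = 0.000905). MTHFD2 had 146, 159 and 127 CPM with ML-60218, against 114, 118 and 109 CPM with DMSO (0.34 ± 0.071, adjusted p = 0.00635). Every ML-60218 library lay above every DMSO library for these genes, replicate 2 being the highest and replicate 3 the lowest in each.

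PSPH (0.19 ± 0.058, adjusted p = 0.0468) and MTHFD1L (0.12 ± 0.035, adjusted p = 0.0304) passed narrowly. The PSPH call was lost in 11 alternatives, among them any without DMSO replicate 1 or 2 or any 1 ML-60218 library. The MTHFD1L call was lost in 5, among them those without DMSO replicate 3, ML-60218 replicate 2 or ML-60218 replicate 3. SHMT2 had 130.1, 133 and 125 CPM with ML-60218, against 129.8, 124.7 and 122.8 CPM with DMSO, and was not called (0.04 ± 0.039, adjusted p = 0.528). Neither were ALDH1L2, MTHFD2L, SHMT1 and MTHFD1, the last at 8.24, 8.91 and 8.15 CPM with ML-60218, against 9.21, 10.0 and 10.9 CPM with DMSO (-0.25 ± 0.16, adjusted p = 0.338).

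With CHX 7 of the 10 genes were lower and 0 higher, where 66.0% of genes were called (32.5% lower and 33.5% higher). PSAT1 fell 3.27-fold, with 11.6, 12.0 and 11.5 CPM in CHX libraries, against 39.4, 39.7 and 35.8 CPM with DMSO (log2 -1.71 ± 0.12, adjusted p = 5.28e-08). MTHFD2 fell 2.23-fold, with 51.8, 46.3 and 55.0 CPM in CHX libraries, against 114, 118 and 109 CPM with DMSO (-1.16 ± 0.075, adjusted p = 1.72e-08). PHGDH fell to 24.4, 25.1 and 25.2 CPM with CHX, against 36.3, 36.1 and 33.0 CPM with DMSO (-0.50 ± 0.059), and SHMT2 fell by 0.45 ± 0.040. PSPH fell by 0.45 ± 0.059, MTHFD1 by 0.78 ± 0.16 and MTHFD1L by 0.26 ± 0.035 on the log2 scale. All 7 had adjusted p of 0.000868 or less, and the calls of PSPH, MTHFD1 and MTHFD1L were lost with a length offset (-0.19, -0.50 and -0.08), that of MTHFD1 also in protein-coding transcripts (-0.43). In TPM the libraries of PSAT1 and MTHFD2 were apart and lower with CHX, but PHGDH averaged 32.9 ± 1.57 with CHX and 32.9 ± 2.16 with DMSO, and SHMT2 88.5 ± 8.63 and 92.0 ± 3.1 in that order. The mean TPM of PSPH and MTHFD1L was higher with CHX, at 20.3 ± 1.5 and 28.2 ± 0.344, against 18.4 ± 0.654 and 23.7 ± 1.29 with DMSO, with overlapping libraries for PSPH. Relative to the median of all genes the log2 differences in TPM were -0.31 for PHGDH, -0.37 for SHMT2, -0.17 for PSPH and -0.05 for MTHFD1L. ALDH1L2 and MTHFD2L, which were not called, were also higher in TPM, at 6.49 ± 0.234 and 6.98 ± 0.425 with CHX, against 5.42 ± 0.0523 and 5.64 ± 0.426 with DMSO, and lay at -0.05 and 0.00 relative to that median. MTHFD2L passed as higher in protein-coding transcripts (0.71, adjusted p = 0.000564) and without CHX replicate 3 (0.27, adjusted p = 0.034).

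With ML-60218 and CHX together, set against CHX alone, 0 of the 10 genes were called by edgeR, where 16.5% of genes were called (8.75% higher and 7.75% lower). None of the 10 had an unadjusted p under 0.05 either, and DESeq2 called 0. PHGDH had 24.0, 24.2 and 24.1 CPM with ML-60218 and CHX, against 24.4, 25.1 and 25.2 CPM with CHX (log2 -0.04 ± 0.060, adjusted p = 0.689). PSAT1 had 10.9, 8.32 and 10.1 CPM with both, against 11.6, 12.0 and 11.5 CPM with CHX (-0.26 ± 0.13, adjusted p = 0.222). The interaction tests whether the response to ML-60218 differed with and without CHX. It passed for PHGDH (-0.42 ± 0.083, adjusted p = 0.0123) and PSAT1 (-0.83 ± 0.17, adjusted p = 0.0159), so 2 of the 10 were called, where 6.56% of all genes were (3.70% negative and 2.86% positive). For PSPH it was -0.28 ± 0.083 (adjusted p = 0.0692) and for MTHFD2 -0.21 ± 0.10 (adjusted p = 0.303).

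**Figure D4:**
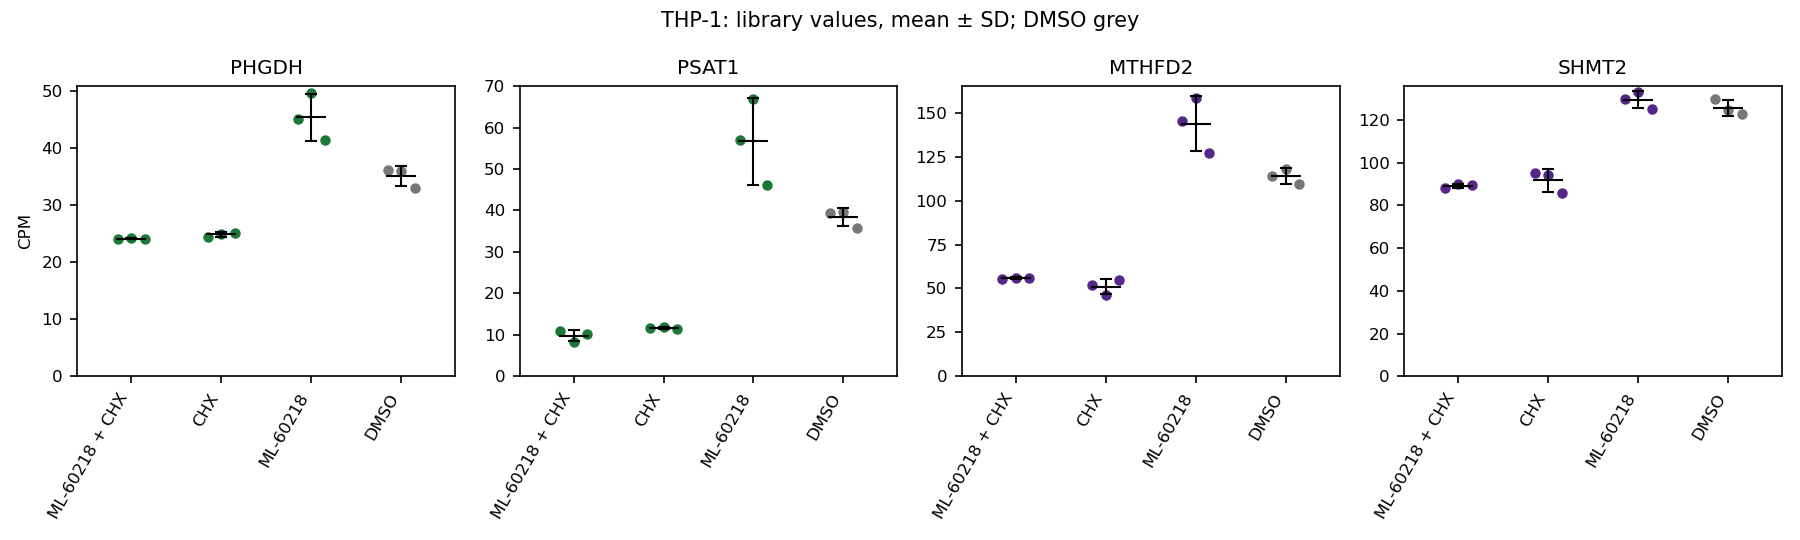
CPM of PHGDH, PSAT1, MTHFD2 and SHMT2 in THP-1 with ML-60218 and CHX, CHX, ML-60218 and DMSO, with a point for each library and bars for mean ± SD (n = 3). PHGDH, PSAT1 and MTHFD2 are highest with ML-60218 alone and lowest in the groups with CHX.

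The cytosolic and mitochondrial branches were compared as log2 ratios of TPM, with an exact two-sided permutation test whose smallest possible p with 3 libraries a group is 0.1, so that no ratio could pass 0.05. Of 27 such comparisons, 9 for each of 3 ratios, 12 had no overlap between the groups, and the lowest Benjamini-Hochberg adjusted p over the 27 was 0.225. All but 1 of those without overlap were knockdown comparisons, where 54.9% to 74.9% of all genes were called. How often ratios of other gene pairs separate the groups was not measured, so whether the separation is particular to these branches is not known. MTHFD2 over MTHFD1 was lower with the POLR3G ASO (1.37 ± 0.11, against 2.68 ± 0.19 with scramble; SD, n = 3), with the POLR3G siRNA (1.81 ± 0.26, against 3.35 ± 0.43 with control siRNA) and with siE4 (2.2 ± 0.44), siE6 (2.33 ± 0.03) and siE8 (2.81 ± 0.19), against 3.19 ± 0.13 with the 25 nM control siRNA. In each of these the groups did not overlap (exact permutation p = 0.1). With ML-60218 the ratio was higher (3.31 ± 0.17, against 2.67 ± 0.27 with DMSO, exact permutation p = 0.1).

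MTHFD1L over MTHFD1 was likewise lower without overlap in the 5 knockdown comparisons, by 0.61, 1.53, 1.26, 0.65 and 0.55 for the ASO, the siRNA, siE4, siE6 and siE8. The ratio of SHMT2 to SHMT1 separated the groups only with siE4 (2.53 ± 0.31, against 3.74 ± 0.61 in controls, exact permutation p = 0.1). Both limits on MTHFD1 and SHMT1 given above apply to these ratios. As summed TPM, the mitochondrial branch had 365 ± 12.1 with the ASO, against 463 ± 26.2 with scramble, 362 ± 8.91 with the POLR3G siRNA, against 637 ± 14.5 in its control, and 331 ± 8.91, 459 ± 19.3 and 627 ± 31.5 with siE4, siE6 and siE8, against 631 ± 44.6 in their control. The shifts of the median TPM given above apply to these sums. The cytosolic branch had 65.2 ± 2.84 with the ASO, against 55.6 ± 2.9 with scramble, and 52.4 ± 4.1 with the POLR3G siRNA, against 53.7 ± 17.5 in its control. It had 52.1 ± 9.13, 50.3 ± 1.97 and 49.5 ± 3.04 with siE4, siE6 and siE8, against 48.2 ± 13.9 in their control. Serine synthesis summed to 516 ± 2.68 TPM with the ASO, against 795 ± 47.8 TPM with scramble, to 349 ± 2.41 with the POLR3G siRNA, against 1140 ± 13.1 in its control, and to 408 ± 4.47, 547 ± 19.9 and 950.0 ± 73.7 with siE4, siE6 and siE8, against 1100 ± 85.4 in their control.

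**Figure D5:**
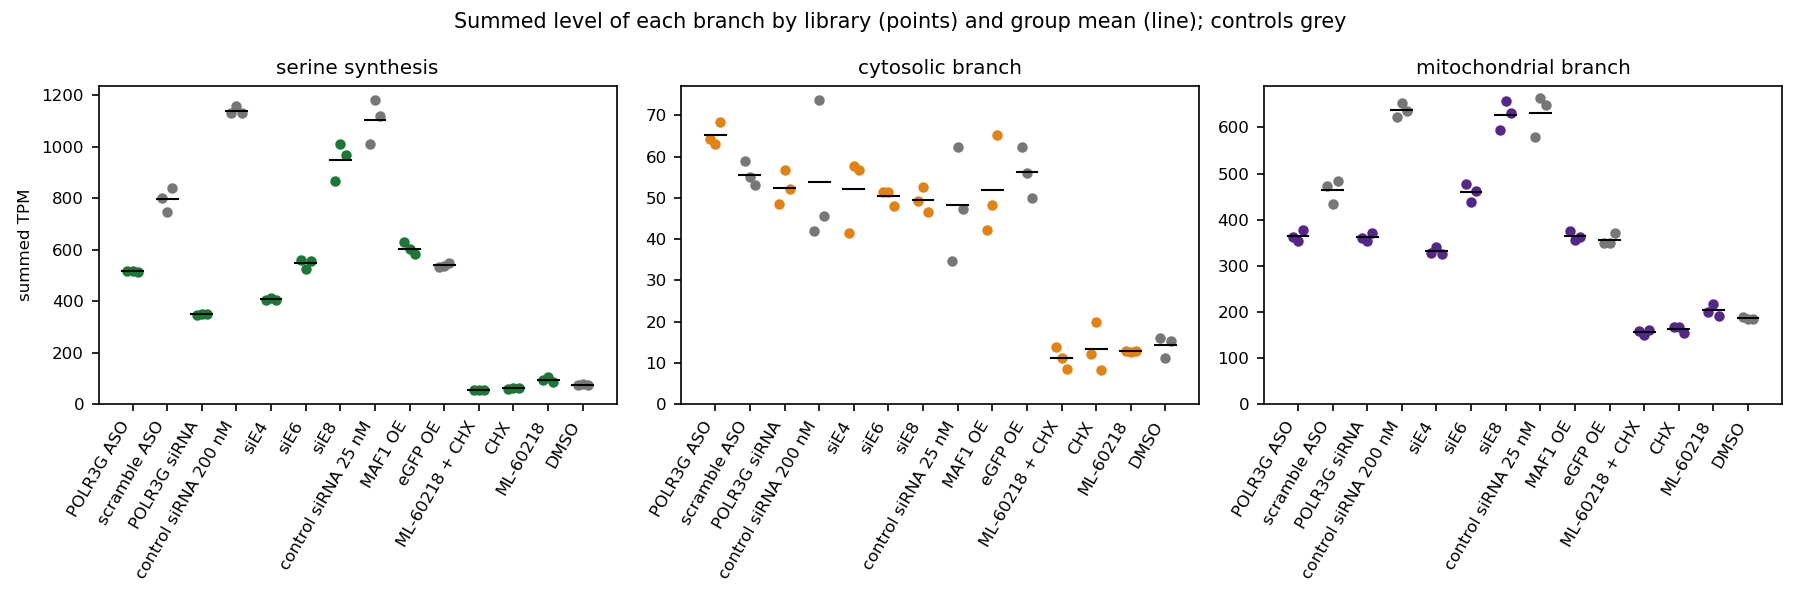
Summed TPM of the serine synthesis, cytosolic and mitochondrial genes in each of the 14 groups, with a point for each library and a line for the group mean. The serine synthesis and mitochondrial sums lie below their controls with the POLR3G ASO, the POLR3G siRNA, siE4 and siE6, whereas the cytosolic sums overlap their controls in most groups.

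Genes that supply or use the same carbon were taken from lists of folate uptake and other folate enzymes (13 of 14 tested), the glycine cleavage system (4 of 4), the methionine cycle and transsulfuration (7 or 8 of 9) and de novo purine synthesis (8 of 8). Folate genes higher and lower numbered 1 and 7 with the POLR3G ASO, 4 and 4 with the POLR3G siRNA, 5 and 3 with siE4, 5 and 5 with siE6, and 8 and 4 with siE8. The called share of these genes was 61.5% with the ASO, the POLR3G siRNA and siE4, 76.9% with siE6 and 92.3% with siE8, where 68.5%, 74.9%, 54.9%, 63.0% and 57.7% of all genes were called in those 5 comparisons. SLC19A1, the reduced folate carrier, rose with all 3 POLR3GL siRNAs, by 0.97 ± 0.059, 1.47 ± 0.059 and 0.95 ± 0.060 on the log2 scale (highest adjusted p = 2.31e-08). ALDH1L1, the cytosolic counterpart of ALDH1L2, rose with the ASO (21.1 CPM, against 5.11 CPM with scramble; 2.04 ± 0.076, adjusted p = 9.54e-08).

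Of the 8 purine synthesis genes, 7 were higher and 1 lower with the POLR3G siRNA, 5 and 1 with siE6, 5 and 2 with siE8, 2 and 4 with siE4, and 1 and 5 with the ASO. The called share of the list was 75.0% with the ASO, siE4 and siE6, 87.5% with siE8, and 8 of 8 with the POLR3G siRNA. Of all genes 68.5%, 54.9%, 63.0%, 57.7% and 74.9% were called in that order. ADSL, adenylosuccinate lyase, was the exception with the POLR3G siRNA (-1.67 ± 0.073, adjusted p = 6.58e-08), where PPAT, the first committed enzyme, rose by 0.55 ± 0.021. With CHX all 8 were lower, PPAT by 1.32 ± 0.057, where 66.0% of all genes were called and 32.5% were lower. Glycine cleavage genes were 0 higher and 3 lower with both the ASO and the POLR3G siRNA, and 1 and 1 with siE4, siE6, siE8 and CHX. GLDC, the glycine decarboxylase, fell by 0.53 ± 0.041 with the ASO, 0.39 ± 0.030 with the POLR3G siRNA, 0.51 ± 0.032 with siE4 and 0.26 ± 0.032 with siE8. Its value with siE6 is not given here.

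Methionine and transsulfuration genes were 2 higher and 5 lower with the ASO, 4 and 3 with the POLR3G siRNA, 0 and 5 with siE4, 3 and 3 with siE6, and 1 and 2 with siE8. The share called was 87.5% with the ASO, 71.4% with siE4, 85.7% with siE6 and 42.9% with siE8, and 7 of 7 with the POLR3G siRNA, beside the same shares of all genes. CTH, which makes cysteine, fell in all 5, by 0.57 ± 0.041, 0.65 ± 0.037, 0.89 ± 0.067, 0.80 ± 0.067 and 0.35 ± 0.066 in that order (highest adjusted p = 0.000479). With CHX 4 folate genes were higher and 7 lower (84.6% called), and 2 methionine genes higher and 4 lower (75.0%), beside 66.0% of all genes. ML-60218 gave 3 lower folate genes (23.1% called, beside 15.5% of all genes), 1 higher methionine gene (CBS, cystathionine beta-synthase, 0.34 ± 0.071, adjusted p = 0.00652) and no edgeR or DESeq2 call in the glycine or purine lists, where 1 and 2 genes had an unadjusted p under 0.05. With ML-60218 and CHX, 1 folate gene was higher and 2 lower (23.1% called, beside 16.5% of all genes), and no other call was made in these 4 lists by edgeR or DESeq2, with 1 gene each at an unadjusted p under 0.05 in the glycine, methionine and purine lists. MAF1 overexpression gave no edgeR or DESeq2 call in them, with 4 folate genes and 0 of the others at an unadjusted p under 0.05.

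A list of ATF4 and 17 other genes that it is known to activate, of which 16 were tested, had 7 higher and 5 lower genes with the ASO, 1 and 15 with the POLR3G siRNA, 0 and 12 with siE4, 1 and 10 with siE6, and 8 and 6 with siE8. With the ASO 75.0% of the list was called and with siE6 68.8%, near the 68.5% and 63.0% of all genes, while with siE4 it was 75.0% beside 54.9% and with siE8 87.5% beside 57.7%. With the POLR3G siRNA 16 of 16 were called, beside 74.9% of all genes. The list had 11 and 0 with ML-60218 (68.8%, beside 15.5% of all genes), 7 and 5 with CHX (75.0%, beside 66.0%), 5 and 1 with ML-60218 and CHX (37.5%, beside 16.5%), and none with MAF1, where 7 had an unadjusted p under 0.05 and DESeq2 called 3. Median log2 fold changes of the list were 0.11 with the ASO, -1.25 with the POLR3G siRNA, -0.52, -0.47 and 0.10 with siE4, siE6 and siE8, and 0.40 with ML-60218. CHAC1, a glutathione-degrading enzyme, fell by 1.19 ± 0.067 with the ASO, 4.13 ± 0.078 with the POLR3G siRNA, 3.28 ± 0.13 with siE4, 2.68 ± 0.12 with siE6 and 1.61 ± 0.11 with siE8. With the ASO DDIT3, a stress transcription factor, rose by 0.92 ± 0.060 while ASNS, asparagine synthetase, fell by 0.92 ± 0.033. SLC7A11, the cystine transporter, rose by 1.24 ± 0.15 with ML-60218 (adjusted p = 0.000191) and fell by 2.69 ± 0.045 with the POLR3G siRNA.

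Likeness of pattern was measured as Pearson's r of log2 fold changes over the 9 treatment comparisons, over the 8704 genes whose mean reached 5 CPM in every group. These comparisons share control libraries and are few, so r is a description. For each gene the 3 most alike were found, and 1 of these 30 genes was in the ATF4 list. That list holds only 18 genes, so the count does not tell how many of the 30 ATF4 activates. PHGDH was most like BCAT1, the cytosolic branched-chain aminotransferase (r = 0.991), ASNS (0.979) and ZNF704 (0.962). PSAT1 was most like SLC7A5, a subunit of the large neutral amino acid transporter (0.945), TTC23 (0.935) and XPOT, the tRNA exporter (0.929). PSPH was most like EIF4EBP1, which binds the cap-binding factor (0.984), YARS1, tyrosyl-tRNA synthetase (0.954), and CYP2R1, a vitamin D hydroxylase (0.943). MTHFD1L was most like S100A11 (0.970), EIF2S2, the beta subunit of initiation factor eIF2, and AARS1, alanyl-tRNA synthetase (both 0.959). The closest gene was KLC1, a kinesin light chain, for SHMT2 (0.984), FYN, a tyrosine kinase, for MTHFD2 (0.953), SDHAF4, an assembly factor of succinate dehydrogenase, for ALDH1L2 (0.967), RBM45 for MTHFD2L (0.962), ATAD3B for MTHFD1 (0.960) and SUB1 for SHMT1 (0.941). Among the members themselves r was 0.93 for PHGDH with MTHFD1L, 0.92 for PSAT1 with MTHFD2 and 0.90 for PHGDH with ALDH1L2, and -0.53 for MTHFD1 with MTHFD1L. SLC7A5 had log2 fold changes of -1.78 ± 0.060 with siE4, -0.37 ± 0.057 with siE6 and 0.60 ± 0.057 with siE8 (highest adjusted p = 7.76e-05).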

How the data were processed

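Poly(A) RNA of 42 HEK293T and THP-1 libraries was read in pairs of 151 cycles from a stranded kit, per the labels' protocols. The submitters' processing notes name bcl2fastq 2.20, Trim Galore, Salmon, DESeq2 and hg38; other versions and the annotation behind the files are not given here, and identifiers were matched to GENCODE release 29. The authors deposited an estimated count and a TPM value for each transcript and library. Of 194142 transcript identifiers 158359 (81.6%, with 91.1% of reads) matched, and their estimated counts were added up for each gene, then rounded. Unmatched transcripts, 8.06% to 9.54% of a library's reads, were left out.

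Each experiment was fitted alone by the quasi-likelihood test of edgeR 4.0.16 (R 4.3.3) after filterByExpr and TMM scaling, p was adjusted by Benjamini-Hochberg across the whole table, and a gene was called below an adjusted p of 0.05. SE is the log2 fold change over the root of F. The difference between ASO and siRNA responses came from 1 fit of both POLR3G experiments. The procedure was also run on counts simulated with the mean levels and spread that edgeR estimated here, with an outcome not given here. Such counts do not test how reads were divided among transcripts. Ratios of TPM used exact permutation tests. Alternatives were DESeq2 1.42.0, RLE size factors, no filter, a length offset, a replicate block, other libraries in the fit, a threshold of 0.01, each library left out and, chosen after seeing the data, protein-coding transcripts only and log2(TPM + 0.1) without a test.

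The 10 members and all lists were chosen with earlier results of these data known. From each list, up to 2 called genes per direction and comparison with the largest change and a mean of at least 5 CPM could be named, and some of these are printed; the 3 genes most correlated with each member were found by the rule given in the text. No pair of replicates agreed within sampling noise (chi-square per gene 4.27 to 32.6). The highest values lay in the POLR3GL experiment, at 18.4 to 32.6 among the 25 nM control siRNA libraries and 21.7 for siE6 replicates 1 and 2. Figures used Python 3.11.15 with matplotlib 3.10.9.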

Additional observations from a re-analysis of the deposited data

Results flagged for a closer look

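The effect of ML-60218 on PHGDH and PSAT1 in THP-1 differed with and without CHX by a test of the interaction. For PHGDH the interaction was -0.42 ± 0.083 on the log2 scale (edgeR adjusted p = 0.0123), the response being -0.04 ± 0.060 in CHX and 0.37 ± 0.057 without it. For PSAT1 it was -0.83 ± 0.17 (adjusted p = 0.0159), the response being -0.26 ± 0.13 in CHX and 0.56 ± 0.11 without it. Both held under every alternative at an adjusted p under 0.05, with adjusted p up to 0.043 and 0.0419, and neither passed 0.01.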

How the results depend on the processing

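Of 1990 tested alternative values for single genes, 1880 kept their direction and their side of the threshold, 70 lost a call, 32 gained one and 8 reversed, and SHMT1, MTHFD1 and MTHFD2L made up 60 of the 110 that changed. With protein-coding transcripts only, MTHFD2L reversed with the ASO (-0.30), with siE6 (-0.06), in the ASO-siRNA difference (-1.78), in siE4 against siE8 (0.56), in siE6 against siE8 (-0.43) and in siE4 against siE6 (0.98), and SHMT2 in the ASO-siRNA difference (-0.02). MTHFD2 with siE8 reversed with a length offset (-0.21). Deposited TPM, a scaling chosen after seeing the data and used with no test, left 52 of 120 values within the spread between replicates, moved 64 and reversed MTHFD2L with the POLR3G siRNA (-0.07), MTHFD1 with siE4 (-0.07) and, with CHX, PSPH (0.14) and MTHFD1L (0.25). The length offset also left 4 members called with CHX and 3 with ML-60218, and 1470 and 456 genes called for ML-60218 in CHX and the interaction. Members called with MAF1 were 0 at 0.01, with the length offset, the block or all HEK293T libraries, and 2 with DESeq2; leaving out a library gave 0 to 1. Genes called with MAF1 were 3 at 0.01, 11 without a filter, 30 with DESeq2, and 2 to 9 leaving out a library. With ML-60218 members called were 3 at 0.01 or without a filter and 3 to 4 leaving out a library, and genes called 1291 at 0.01 and 1520 to 2174. For ML-60218 in CHX, 1277 genes were called at 0.01 and 1644 to 2289 leaving out a library, with 0 to 1 members. For the interaction, 290 genes and 0 members were called at 0.01 and 620 to 1092 genes leaving out a library.

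The difference in log2 SHMT2 to SHMT1 was 0.71, -1.69 and -0.94 for the POLR3G siRNA, siE4 and siE6 with estimated counts in place of TPM. Of MTHFD2 to MTHFD1 it was -1.37 (siE4) and -0.62 (siE6) with estimated counts, and with coding transcripts -1.57 (ASO), -1.79, -0.74 and -0.80 (siE4, siE6, siE8), 1.04 (ML-60218) and -0.62 (ML-60218 in CHX). Of MTHFD1L to MTHFD1 it was -0.99 (ASO) and -0.89 (siE8) with estimated counts, and with coding transcripts -0.91 (ASO), -1.88, -1.11 and -1.63 (siE4, siE6, siE8), 0.74 (ML-60218) and -0.79 (ML-60218 in CHX). The cause of these shifts was not tested. Deviations of same-numbered replicates had correlations of -0.234 to 0.264, without a common sign. They were positive at every replicate number for siE6 with siE8 (0.211, 0.165 and 0.08) and CHX with DMSO (0.117, 0.132 and 0.059). The same held for siE8 with its control, ML-60218 and CHX with either drug alone, and MAF1 with eGFP. They were negative for the POLR3G siRNA with its control (-0.11, -0.084 and -0.028) and siE4 with siE8 (-0.153, -0.15 and -0.071). The same held for siE4 with its control, and the other pairs of groups were mixed. These values do not settle whether replicates were paired. The replicate block moved the count of called members in 4 comparisons. PSAT1 was lost for MAF1 (0.24) and PSPH for ML-60218 (0.19), while SHMT1 with siE4 (0.99) and PSAT1 with siE8 (-0.16) were gained.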
